A study of Mus musculus with 12 samples.

Results

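The genes described here are 9 genes of the Hedgehog pathway, measured in mouse embryonic epicardium (EE) and proepicardium (PE). They were taken by symbol from the table of mRNA counts: the ligand genes Shh, Ihh and Dhh, the receptor gene Ptch1, the transducer Smo, the transcription factors Gli1, Gli2 and Gli3, and the ligand-binding inhibitor Hhip. All 9 were among the 55228 genes of the table, and 8 of them, all but Dhh, were among the 23853 genes that had a count in 3 or more of the 6 libraries and were tested.

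The PE is a cluster of mesothelial cells at the venous pole of the looping heart, and its cells spread over the myocardium to form the EE. EE was obtained at E10.5 by fluorescence-activated cell sorting and PE at E9.5 by manual dissection, so a difference between stages cannot be told apart from one between ways of collection. Both groups came from mice labelled Wt1Cre-EGFP, which the study's methods name Wt1GFP/+, carried no treatment, and comprised 3 samples each, with at least 5 embryos per sample. How the EE cells were gated is not given in the sources used here, and the PE samples hold whatever cells the dissection took.

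Hedgehog ligands are secreted proteins that bind Patched receptors. Without ligand, Ptch1 keeps Smo inactive and Gli3 and Gli2 are processed to repressors at the primary cilium, and with ligand Smo becomes active and the full-length Gli proteins activate transcription. Gli1, Ptch1 and Hhip are themselves transcribed in response to the signal in many tissues and are therefore used as readouts of it, and in the mouse embryo the ligands come largely from epithelia such as gut endoderm and the floor plate and act on neighbouring mesenchyme.

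Ptch1 and Hhip, the 2 genes of the 9 that were called different between the stages, are shown with the bases before their start sites, because Gli proteins act through the motif GACCACCCA. The 300-base RefSeq promoter windows (build GRCm38.p6, 250 bases before and 50 after the start) held an entry for 7 of the 9 genes, and none of the 7 windows contained GACCACCCA or its core CCACCCA on either strand. Of all 32851 promoter windows, 0.253% held GACCACCCA and 9.3% held the core, which lies within the longer motif. When 2000 bases before each start were searched instead, a window chosen after the first search, 1 of the 7 genes had GACCACCCA, as did 1.65% of all 32851 starts. That gene was Ptch1, whose match lay at chr13:63566435-63566443, with its far end 708 bases before the RefSeq start and on the strand opposite to the gene. The GENCODE annotation extends Ptch1 beyond this place, which falls in no exon of it. The sequences are written 5′ to 3′ on the strand of the gene, which is the minus strand for both, and the capitals mark the motif as it reads on that strand:
Ptch1 motif, chr13:63566405-63566473: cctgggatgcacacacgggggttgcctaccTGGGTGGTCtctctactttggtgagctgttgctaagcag
Ptch1 before the start, chr13:63565736-63565985: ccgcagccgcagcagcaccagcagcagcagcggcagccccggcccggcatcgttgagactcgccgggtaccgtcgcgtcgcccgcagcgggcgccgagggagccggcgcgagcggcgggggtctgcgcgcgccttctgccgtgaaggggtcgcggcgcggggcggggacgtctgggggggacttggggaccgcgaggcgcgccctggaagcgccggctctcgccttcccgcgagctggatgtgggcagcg
Hhip before the start, chr8:80058009-80058258: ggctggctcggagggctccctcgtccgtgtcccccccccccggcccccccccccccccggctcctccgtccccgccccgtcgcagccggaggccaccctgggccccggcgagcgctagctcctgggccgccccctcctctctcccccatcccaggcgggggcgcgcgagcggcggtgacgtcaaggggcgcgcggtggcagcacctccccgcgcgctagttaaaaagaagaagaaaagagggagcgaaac
The 250 bases before the start were 78.4% G and C for Ptch1 and 76.0% for Hhip, and 59.6% to 72.8% for the other 5 genes with an entry. A match of letters is a description of these windows, and binding was not measured in these data.

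The EE libraries held 18464362 to 24481780 counts and the PE libraries 23054165 to 25814015, so that 3 counts, taken as the floor for a count of 0, correspond to 0.13 to 0.171 CPM in EE and 0.112 to 0.121 CPM in PE. CPM are counts scaled to a common library total, after TMM adjustment, and the floor covers counting error only. The first principal component, with 63.2% of the variance, separated EE from PE, and the second, with 17.7%, set EE replicates 1 and 3 at opposite ends. EE replicate 3 had 18763 genes with a count, against 22186 to 24842 in the other 5 libraries. Of 15 epicardial and mesothelial markers, 13 were called higher in EE. Over all tested genes, 4.52% were called higher in EE and 4.86% lower. Of 16 hepatoblast markers 15 were called lower in EE and of 15 cardiomyocyte markers 8 were called higher, so RNA of neighbouring cell types differed between the groups as well. Calls were made with the quasi-likelihood test of edgeR, Benjamini-Hochberg adjustment over all 23853 genes, an adjusted p under 0.05 and a change of more than 1.5-fold, and all fold changes are EE over PE.

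Ptch1 and Hhip were called lower in EE and no member was called higher, while Gli1 and Gli3 came close to the limit and Smo, Gli2, Shh and Ihh were not called. The 2 calls among 8 tested genes compare with 4.86% of all tested genes called lower in EE, 4.52% called higher and 9.38% called in either direction. At an unadjusted p under 0.05, 5 of the 8 were lower and 0 higher, against 3371 lower and 2622 higher of all 23853 tested genes. All 8 fold changes were below 0, as were 52.6% of those of all genes, and their median was -1.21 on the log2 scale, against -0.06 for all genes. For 6 of the 8 every EE library lay below every PE library, which was the case for 18.6% of all tested genes. In bulk samples such as these, fewer cells that express a gene and less RNA per cell cannot be told apart.

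**Figure D1:**
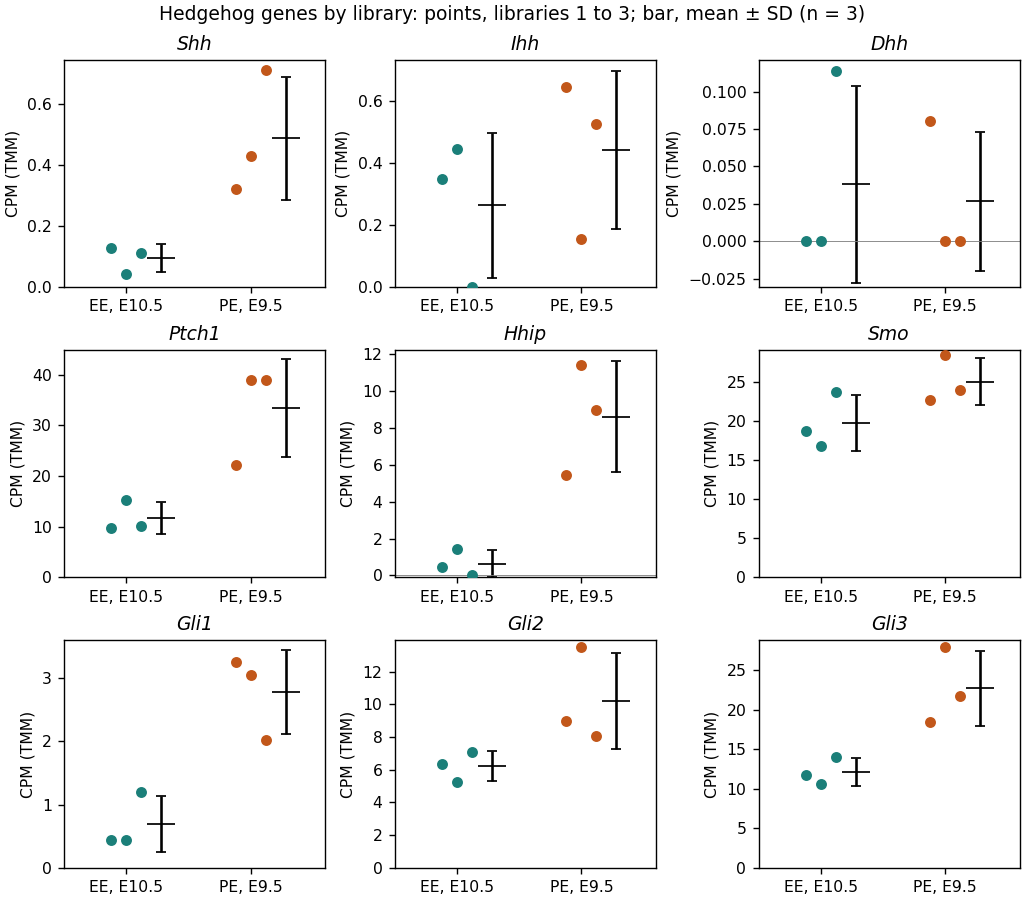
Level of each of the 9 Hedgehog genes in CPM (vertical axes, linear, a separate scale per gene) in the 3 EE libraries at E10.5 and the 3 PE libraries at E9.5. Points are libraries, and the bar with whiskers is the mean ± SD (n = 3). EE and PE points are apart for Shh, Ptch1, Hhip, Gli1, Gli2 and Gli3 and overlap for Ihh, Dhh and Smo.

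Among the ligand genes, all 3 lay near the floor. Shh, the ligand of gut endoderm, notochord and floor plate (chr5:28456815-28467256, minus strand), had 3, 1 and 2 counts in the EE libraries, against 8, 11 and 19 counts in the PE libraries. These are 0.13, 0.0444 and 0.114 CPM in EE, against 0.322, 0.429 and 0.712 CPM in PE. Every EE library was at or under the floor of 3 counts and every PE library above it. The log2 fold change was -2.29 (95% interval -4.31 to -0.27), and with an adjusted p of 0.148 the gene was not called. Of the exon bases of Shh, 28.3% overlap the genes 9530036O11Rik and Gm26894 on the other strand, and the library kit does not mark strand, so reads of the shared bases cannot be assigned. Of 11 tested markers of endoderm and gut epithelium, 8 were called lower and 1, Krt7, higher in EE. Over all tested genes 4.86% were called lower and 4.52% higher. Their summed level was 165 to 195 CPM in EE and 430 to 583 CPM in PE, and without Krt7, left out after its values were seen, 5.98 to 20.9 CPM in EE and 386 to 569 CPM in PE. Pdx1 had no count in any EE library and 50 counts over the PE libraries, so it passed the filter only through PE. Nkx2-1 had 0 counts in EE and 1 in PE. Of 11 markers of neural tube, notochord and neural crest, 8 had no count in any EE library and 5 none in any PE library, and of the 3 tested 1, the neuronal tubulin gene Tubb3, was called higher in EE. The part of these cells in the level of Shh was not tested.

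Ihh, the ligand of cartilage and of gut epithelium (chr1:74945315-74951672, minus strand), had 8, 10 and 0 counts in the EE libraries, against 16, 4 and 14 counts in the PE libraries. The groups overlapped, the absence of counts in EE replicate 3 allows a level of up to 0.171 CPM there, and the log2 fold change of -0.71 had an interval of -3.19 to 1.77 (adjusted p = 0.756), so a change of severalfold in either direction was not detectable at this depth. Dhh, the ligand of Schwann and Sertoli cells (chr15:98891152-98898540, minus strand), had 0, 0 and 2 counts in EE, against 2, 0 and 0 counts in PE. It was not tested, and 25.2% of its exon bases overlap Gm49442 on the other strand. With so few counts the share of each ligand in their sum varied from library to library and overlapped between the groups, as for Shh, which made up 28.6%, 9.67% and 60.7% of the summed ligand level per kilobase in EE, against 33.0%, 74.6% and 59.2% in PE.

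Of the receptor and transducer genes, Ptch1 was lower in EE and Smo was not called. Ptch1, the Hedgehog receptor that restrains Smo (chr13:63508328-63573598, minus strand), was at 9.71, 15.3 and 10.2 CPM in EE, against 22.2, 39.0 and 38.9 CPM in PE. Every EE library lay below every PE library, and the lowest PE library, replicate 1, was above the highest EE library, replicate 2. Ptch1 averaged 11.7 ± 3.08 CPM in EE and 33.4 ± 9.68 CPM in PE (SD, n = 3 each), a log2 fold change of -1.51 (SE 0.307, 95% interval -2.20 to -0.82, adjusted p = 0.0148), or 2.85-fold lower in EE. The direction held in all 14 alternative runs, and the call was lost without EE replicate 1 (adjusted p = 0.0507), PE replicate 2 (0.0566) or PE replicate 3 (0.0635). No other gene overlaps its exons.

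Smo, the membrane protein that passes the signal on (chr6:29735503-29761365, plus strand), was at 18.8, 16.8 and 23.8 CPM in EE, against 22.8, 28.5 and 24.0 CPM in PE. EE replicate 3 lay above PE replicate 1, so the groups overlapped. The log2 fold change was -0.34 (95% interval -0.88 to 0.19, adjusted p = 0.424), an interval that leaves out a decrease as large as the fitted one of Ptch1. It overlaps the interval of Ptch1, -2.2 to -0.82, and the difference between these genes was not tested. Within each library, where scaling between libraries cancels, there were 20.5, 36.1 and 16.9 units of Ptch1 per 100 of Smo in EE, against 38.6, 54.1 and 64.3 in PE, both per kilobase of merged exons. The EE ratios were all below the PE ratios, although EE replicate 2 came close to PE replicate 1.

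Hhip, a membrane glycoprotein that binds and sequesters the ligands and is induced by the signal (chr8:79965851-80058006, minus strand), showed the largest fold change of the 8 tested genes. It had 11, 33 and 0 counts in EE, or 0.477, 1.46 and 0 CPM, against 135, 293 and 240 counts in PE, or 5.44, 11.4 and 8.99 CPM. EE replicate 3 had no count and the highest EE library lay well below the lowest PE library. The log2 fold change was -3.69 (SE 0.867, 95% interval -5.63 to -1.75, adjusted p = 0.0276), or 12.9-fold lower in EE. Without EE replicate 3 the log2 fold change was -3.15 (adjusted p = 0.00909). The call was lost without EE replicate 1 (0.0818), PE replicate 2 (0.0773) or PE replicate 3 (0.0596), and the direction held in all 14 alternatives. Relative to Ptch1, Hhip was also lower in EE, with 7.68, 14.99 and 0 units per 100 of Ptch1 per kilobase, against 38.3, 45.9 and 36.1 in PE.

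The marker lists of other cell types did not all run in the direction of Ptch1 and Hhip. Over all tested genes 4.86% were called lower and 4.52% higher in EE. Of 12 markers of septum transversum and sinus venosus 7 were called lower and 0 higher, and 1 was higher at an unadjusted p under 0.05. They summed to 188 to 284 CPM in EE and 483 to 547 CPM in PE, and none was at 0 in all EE libraries. The 16 hepatoblast markers summed to 173 to 592 CPM in EE and 4108 to 7873 CPM in PE. Ahsg among them had no count in EE and passed the filter only through PE. Of 14 endothelial and endocardial markers 8 were called lower and 1 higher in EE, at 281 to 441 CPM summed in EE and 495 to 598 CPM in PE. Cardiomyocyte markers ran the other way, with 8 of 15 called higher and 0 lower, and 9708 to 15147 CPM summed in EE, against 4787 to 7592 CPM in PE. Immediate early and dissociation stress genes were also higher, with 10 of 16 called higher and 496 to 1373 CPM summed in EE, against 59.1 to 95.2 CPM in PE. The sums of erythroid and macrophage markers overlapped, at 605 to 8753 CPM in EE and 2973 to 7705 CPM in PE. The part of any of these in the levels of the Hedgehog genes was not tested.

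**Figure D2:**
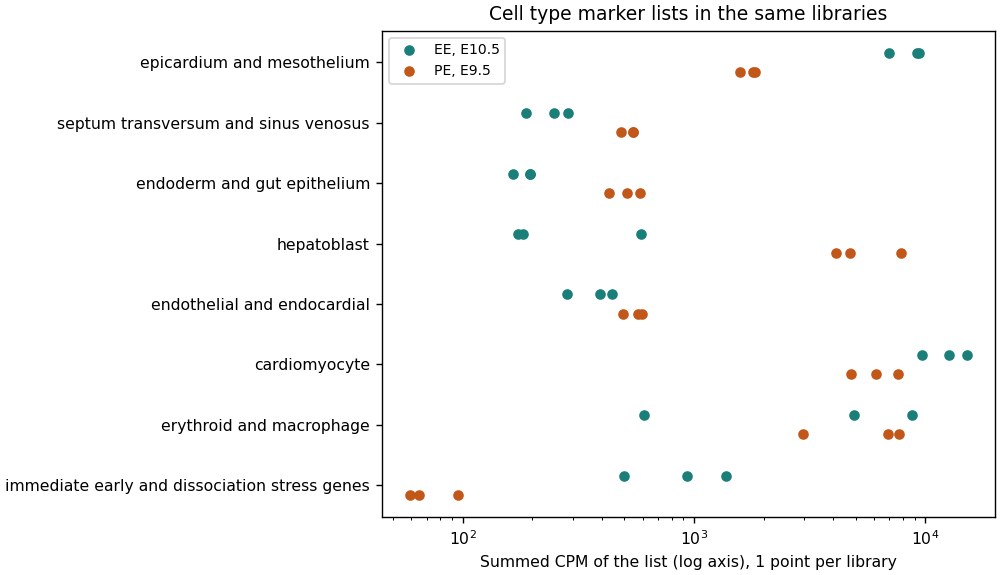
Summed CPM (horizontal axis, log scale) of the marker lists of 8 cell types or states, 1 point per library, EE above PE in each row. The EE libraries lie below the PE libraries for septum transversum and sinus venosus, endoderm, hepatoblast and endothelial markers, above them for epicardial, cardiomyocyte and immediate early genes, and overlap them for erythroid and macrophage genes.

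Of the Gli factors, Gli1 and Gli3 were lower in every EE library without passing the limit. Gli1, the activator that is itself a target of the pathway (chr10:127329882-127341974, minus strand), had 10, 10 and 21 counts in EE, against 81, 78 and 54 counts in PE. In CPM it was at 0.434, 0.444 and 1.2 in EE, against 3.26, 3.05 and 2.02 in PE. The highest EE library was replicate 3 and the lowest PE library also replicate 3, and the groups did not overlap. The log2 fold change of Gli1 was -2.01 (SE 0.587, 95% interval -3.33 to -0.70), larger in the fit than that of Ptch1, and the adjusted p was 0.0625. It passed the limit with DESeq2 (adjusted p = 0.00584), with library size alone (0.0482), with the filterByExpr filter (0.0466), without a filter (0.0412) and without EE replicate 3 (0.0113, log2 fold change -2.65), and over all alternatives the adjusted p ran from 0.00584 to 0.232. Arhgap9 and Gm47200 on the other strand overlap 6.55% of its exon bases.

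Gli3, which acts mainly as a repressor when the signal is absent (chr13:15463235-15730026, plus strand), was at 11.7, 10.6 and 14.0 CPM in EE, against 18.5, 27.9 and 21.7 CPM in PE. No EE library reached a PE library, and the log2 fold change was -0.91 (SE 0.261, 95% interval -1.50 to -0.33, adjusted p = 0.0588). Gli3 passed the limit with DESeq2 (adjusted p = 0.00706), library size alone (0.0319) and the filterByExpr filter (0.0489), and just under it without EE replicate 3, and its adjusted p over all alternatives ran from 0.00706 to 0.29. Gli2, the main activator in many tissues (chr1:118834132-119053619, minus strand), was at 6.33, 5.23 and 7.08 CPM in EE, against 8.98, 13.5 and 8.06 CPM in PE. The groups did not overlap either, but EE replicate 3 and PE replicate 3 were close, and the log2 fold change was -0.71 (95% interval -1.43 to 0.00, adjusted p = 0.202).

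Within the summed Gli level, the shares of Gli1 and Gli2 were apart between the groups and that of Gli3 overlapped. Per kilobase of merged exons, Gli1 made up 3.9%, 4.55% and 8.79% of the summed Gli level in EE, against 16.8%, 11.1% and 10.54% in PE. Gli2 made up 41.4%, 39.0% and 37.8% in EE, against 33.6%, 35.8% and 30.5% in PE. Every EE library was thus below every PE library in its share of Gli1 and above every PE library in its share of Gli2, whether or not counts were divided by length. The share of Gli3 overlapped, at 53.4% to 56.4% in EE and 49.6% to 59.0% in PE. Gli1 per 100 of Gli3 was 7.14, 8.07 and 16.5 in EE, against 33.9, 20.9 and 17.9 in PE, and Gli1 per 100 of Ptch1 overlapped, at 8.26 to 33.5 in EE and 14.8 to 41.7 in PE. These ratios share the same 6 libraries and were not tested.

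**Figure D3:**
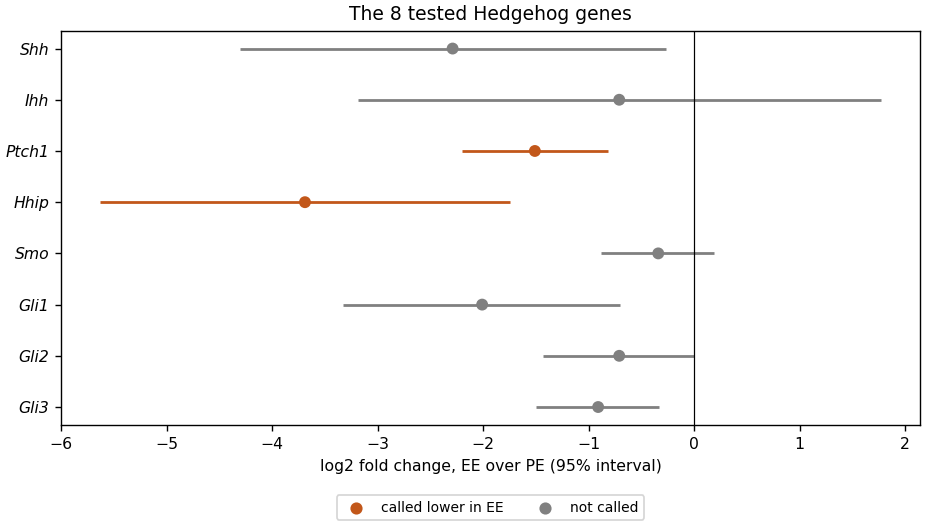
Fitted log2 fold change of EE over PE (horizontal axis) for the 8 tested Hedgehog genes, with its 95% interval as a line. Ptch1 at -1.51 and Hhip at -3.69 were called lower in EE, grey genes were not called, and the intervals of Ihh and Smo cross 0 and that of Gli2 ends at it.

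Per kilobase of merged exons, the genes kept a similar order in EE and PE, except that Hhip moved and that Ptch1 and Gli2, and Shh and Ihh, changed places. In EE, the level of Smo was highest at 3.52 ± 0.644 CPM per kilobase of merged exons, followed by Gli3 at 1.26 ± 0.182, Gli2 at 0.905 ± 0.135 and Ptch1 at 0.825 ± 0.217 (SD, n = 3). Gli2 and Ptch1 overlapped in their libraries, while the steps from Smo to Gli3, from Gli3 to Gli2 and from Ptch1 to Gli1 did not. Below them Gli1 at 0.139, Ihh at 0.0864, Hhip at 0.0713 and Shh at 0.0338 CPM per kilobase overlapped from neighbour to neighbour, with Dhh last. In PE, Smo was again highest at 4.46 ± 0.542 CPM per kilobase, followed by Gli3 at 2.37 ± 0.5, Ptch1 at 2.35 ± 0.682, Gli2 at 1.48 ± 0.425, Hhip at 0.95 ± 0.333 and Gli1 at 0.556 ± 0.132 (SD, n = 3). From Gli3 down to Gli1 each neighbouring pair overlapped, and Shh at 0.171 and Ihh at 0.145 CPM per kilobase formed a lower group. Hhip thus stood above Gli1 in PE and below Gli1 and Ihh in EE, where Gli1 overlapped Ihh and Ihh overlapped Hhip. With the length of the longest transcript, Ptch1 came above Gli2 in EE (1.13 against 0.936 CPM per kilobase) and above Gli3 in PE (3.21 against 2.78). Ihh then came above Shh in PE as in EE (0.179 against 0.171 in PE). At that length neither Ptch1 and Gli2 nor Shh and Ihh changed places, while Ptch1 and Gli3 did.

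**Figure D4:**
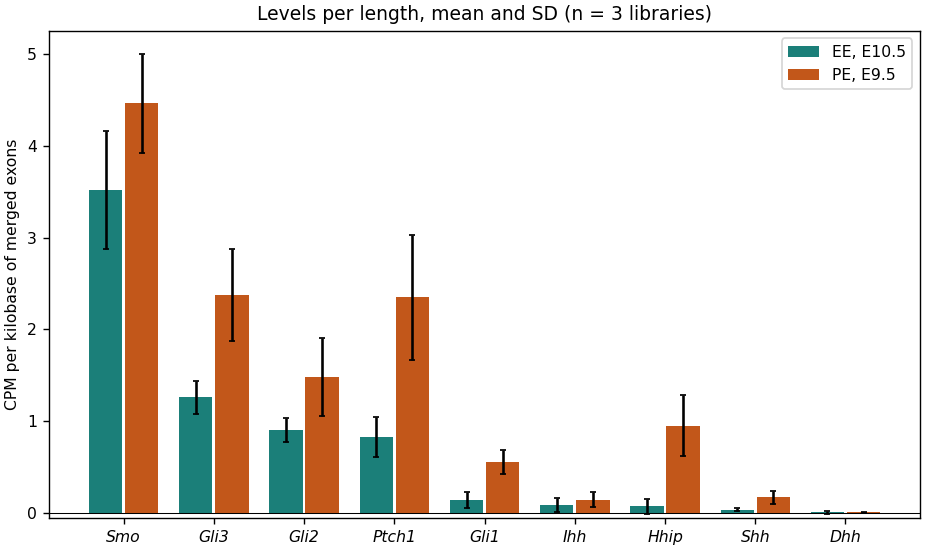
Mean level of the 9 Hedgehog genes in CPM per kilobase of merged exons (vertical axis, linear from 0), EE bars left of PE bars, with whiskers for the SD (n = 3). Smo is highest in both groups at 3.52 in EE and 4.46 in PE, and Hhip is at 0.0713 in EE and 0.95 in PE.

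The genes whose levels followed the readout genes most closely over the 6 libraries were sought among 8533 to 8534 genes with a mean of at least 10 CPM, by Pearson's r of log2(CPM + 1). For Ptch1 these were Zfp180, a zinc finger gene (r = 0.9992), Ncapg, a condensin subunit (0.9982), and Sox11, a transcription factor of progenitor cells (0.9964). For Hhip they were Acsl1, a long-chain acyl-CoA synthetase (0.9993), Ednra, the endothelin A receptor (0.999), and Prom1, a membrane glycoprotein (0.9985). For Gli1 they were Usp22 (0.9911), Gemin5 (0.9846) and Usp36 (0.9828). Among the Hedgehog genes, Hhip and Ptch1 had an r of 0.98 with each other, and Gli1 had 0.77 with Hhip and 0.75 with Ptch1, below its 0.9 with Gli3, 0.87 with Gli2 and 0.84 with Smo. Ptch1 had 0.88 with both Gli3 and Shh. The 6 libraries fall into 2 stages and any gene that differs between them scores high, so these values describe likeness only.

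Other genes of the pathway were counted in 5 lists with 111 members, of which 109 were tested, 10 (9.17%) called lower and 7 (6.42%) higher in EE. Their median log2 fold change was -0.23. Of all tested genes 4.86% were called lower and 4.52% higher, with a median of -0.06. Of 8 co-receptors and surface binders, 3 were called higher and 0 lower in EE (1, Gpc6, was lower at an unadjusted p under 0.05, and was called with DESeq2 and limma), with a median log2 fold change of 0.69. Cdon, a co-receptor that presents ligand to Ptch1, was at 12.4, 13.7 and 17.7 CPM in EE, against 5.32, 3.86 and 3.52 CPM in PE. Gas1, another co-receptor, was at 30.9, 38.3 and 54.6 CPM in EE, against 18.6, 12.8 and 9.74 CPM in PE. Both were higher in every EE library than in any PE library, with a log2 fold change of 1.78 for Cdon (SE 0.311, adjusted p = 0.00732) and 1.59 for Gas1 (SE 0.315, adjusted p = 0.0129). Cdon kept its call in all 14 alternatives and Gas1 lost it without PE replicate 3 (adjusted p = 0.0538). The other strand carries Gm48488 over 19.9% of the exon bases of Gas1.

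Cpe, a prohormone carboxypeptidase that was also listed, was higher in EE by 1.02 on the log2 scale (adjusted p = 0.0402), a call lost without any library but EE replicate 2, at adjusted p of 0.0689 to 0.167, and with library size alone (0.0581). Of the members not called, the glypican gene Gpc3 was the most abundant, at 1215 to 1996 CPM in EE and 1719 to 1839 CPM in PE, and Gpc6 followed at 17.9 to 27.2 CPM in EE and 38.0 to 40.1 CPM in PE.

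Of the 7 genes of ligand lipidation and release, 2 (28.6%) were called lower and 0 higher in EE. Over all tested genes these shares were 4.86% and 4.52%. At an unadjusted p under 0.05, and with DESeq2 and limma, 0 were higher as well. Their median log2 fold change was -1.23. Scube3, of a family of secreted glycoproteins that aid the release of ligand, was at 1.39, 1.82 and 0.913 CPM in EE, against 6.04, 5.19 and 4.35 CPM in PE (log2 fold change -1.91, adjusted p = 0.0226). Its groups were apart, and the call was lost without EE replicate 1 (0.0528), PE replicate 1 (0.0707), PE replicate 2 (0.0961) or PE replicate 3 (0.0683). Disp2, a homologue of the ligand exporter Disp1, had no count in EE and 43 counts over the PE libraries. That is at least 11.7-fold lower in EE with the floor of 3 counts set over the whole group. It passed the filter only through the PE libraries, where it was high, so its adjusted p of 0.0331 adds no support beyond the counts. Disp2 had a value in 10 of the 14 alternatives. Its call was lost without EE replicate 1 (0.0631) or EE replicate 2 (0.0627). Disp1 itself and Hhat, the acyltransferase that palmitoylates the ligands, were not called, at 14.8 to 21.7 and 13.8 to 16.7 CPM in EE, against 10.7 to 14.0 and 11.8 to 16.7 CPM in PE.

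Of 28 Gli regulators and ciliary transducers 2 (7.14%) were called lower and 0 higher in EE. At an unadjusted p under 0.05, 1 was higher, and with DESeq2 and limma 0 were called higher. Of 41 primary cilium genes 1 (2.44%) was called lower and 1 (2.44%) higher. Over all tested genes these shares were 4.86% and 4.52%. The median log2 fold changes were -0.24 and -0.22 in these lists, in that order. Fold changes below 0 were 22 of the 28 and 27 of the 41, against 52.6% of all tested genes. Sufu, which holds the Gli proteins in check, was at 12.9, 15.6 and 10.8 CPM in EE, against 26.6, 26.6 and 22.4 CPM in PE (log2 fold change -0.94, adjusted p = 0.0414). Evc2, a ciliary partner of Smo, was at 15.4, 15.5 and 7.87 CPM in EE, against 26.7, 30.2 and 28.3 CPM in PE (log2 fold change -1.13, adjusted p = 0.0423). Both were apart between the groups, but the call of Sufu was lost when any single library was left out, at 0.0554 to 0.171, and that of Evc2 when any but EE replicate 3 was left out, at 0.0572 to 0.138. Ift43, a subunit of the retrograde transport complex of the cilium, was higher in EE by 0.90 on the log2 scale (adjusted p = 0.0245), a call lost without PE replicate 2 (0.109) or PE replicate 3 (0.0954). Kifap3, a subunit of the kinesin of anterograde transport, was lower at -0.70 (adjusted p = 0.0480), a call lost without any single library (0.0653 to 0.227) and without a filter (0.0713). The kinase regulator Prkar1a, the kinase Csnk1a1 and the ligase adaptor Spop were the most abundant members not called, with Prkar1a at 588 to 667 CPM in EE and 411 to 607 CPM in PE.

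Of 25 tested genes that have been reported as Hedgehog targets in some tissue, 5 were called lower and 3 higher in EE. Among all tested genes, 4.86% were called lower and 4.52% higher. The median log2 fold change of the listed targets was -0.80. Foxf1, a target in gut mesenchyme, was at 0.173, 2.35 and 0.514 CPM in EE, against 14.3, 10.6 and 10.3 CPM in PE (log2 fold change -3.51, SE 0.735, adjusted p = 0.0168). Foxa2, a forkhead gene of endoderm and floor plate, had 1 count over the EE libraries and 268 counts over the PE libraries. That is a ratio of 219-fold lower in EE, with an exact interval of 39.0 to 8696 that covers counting error only. It passed the filter through the PE libraries, where it was high, so its adjusted p of 0.00222 adds no support beyond the counts. Cyp1b1, a cytochrome P450 gene, was at 2.73, 3.11 and 3.6 CPM in EE, against 17.9, 23.1 and 23.5 CPM in PE (log2 fold change -2.77, SE 0.284, adjusted p = 0.00046). Ccnd2, a cyclin gene, was higher in EE by 1.68 on the log2 scale (SE 0.172, adjusted p = 0.00046). Foxf1, Cyp1b1 and Ccnd2 kept their calls in all 14 alternatives, and so did Foxa2, with the limit given above. Osr1, a gene of intermediate and lateral mesoderm, was lower at -1.67 (adjusted p = 0.022) and the Wnt antagonist Sfrp1 at -1.09 (adjusted p = 0.0108). Osr1 lost its call without EE replicate 1, EE replicate 2, PE replicate 1 or PE replicate 3 (0.0522 to 0.0711), and Sfrp1 without PE replicate 2 (0.0605) or PE replicate 3 (0.0511).

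The remaining targets that were called ran against the direction of Ptch1 and Hhip. Foxc1, a forkhead gene of mesoderm, was at 3.25, 8.56 and 5.14 CPM in EE, against 1.21, 1.09 and 1.46 CPM in PE (log2 fold change 2.17, adjusted p = 0.0199), and its call was lost without EE replicate 2 (0.0718) or any single PE library (0.0536 to 0.087). The cyclin gene Ccnd1 was higher by 1.00 on the log2 scale (adjusted p = 0.0487), a call lost without EE replicate 2 or 3 or PE replicate 2 or 3 (0.104 to 0.177), with RLE factors (0.0529), with library size alone (0.084) and with limma (0.0508), and LTO1 on the other strand overlaps 23.4% of its exon bases. Pdgfra, the most abundant listed target that was not called, averaged 88.6 ± 19.2 CPM in EE and 157 ± 52.3 CPM in PE (SD, n = 3 each). Many of these genes have other regulators, and their direction was not taken as a measure of Hedgehog signalling.

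**Figure D5:**
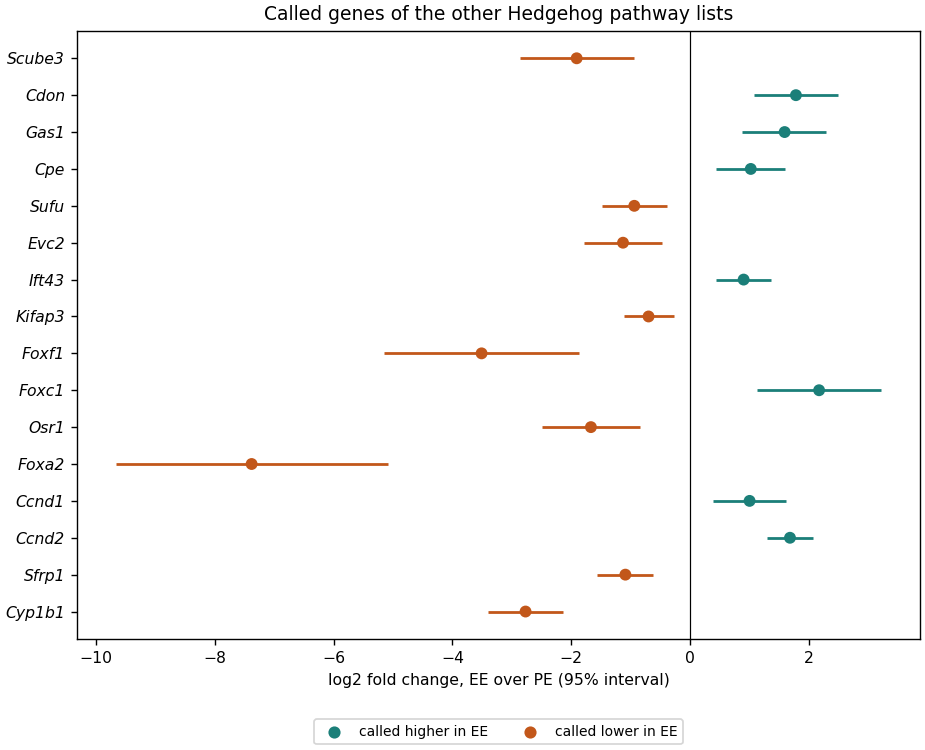
Fitted log2 fold change of EE over PE (horizontal axis) with its 95% interval for the called genes of the 5 other pathway lists, without Disp2, which had no count in EE. The 7 genes right of 0, among them Cdon at 1.78 and Gas1 at 1.59, were called higher in EE, and the 9 left of 0, among them Scube3 at -1.91 and Foxf1 at -3.51, were called lower.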

How the data were processed

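The mRNA libraries were prepared with SMART-Seq v4 and Nextera XT, which do not mark strand. The authors deposited whole-number counts per gene that were not normalized. The study's methods name RSEM on the mm10 transcriptome, whereas STAR, featureCounts and Trim Galore 0.4.3.1 stand in the processing notes of the submitters. Columns named EPDC were read as EE by their number. The samples are separate pools by the labels, while the study's methods give litters per stage only, so p-values measure the spread between these samples. The table of small RNA was not used here.

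TMM factors were obtained from the deposited counts, and EE was compared with PE in edgeR 4.0.16 (quasi-likelihood test, Benjamini-Hochberg adjustment) in R 4.3.3, for genes counted at least once in 3 or more libraries. The common dispersion was 0.164. The standard error is the size of the log2 fold change over the square root of F, and intervals are at 95%. Over all genes the median log2 fold change was -0.06, and -0.17 with library size alone. The libraries held 18464362 to 25814015 counts each, and intervals of counts cover counting error only. Lengths, positions and overlaps came from GENCODE for GRCm38, which held 53569 of the 55228 symbols, and sequences from RefSeq (GRCm38.p6). Gli1 is among the members with no promoter entry and was named only.

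The members and lists were chosen with earlier results of these data known, and 1 listed gene is not reported here. The text names all members with every library's value, the called genes of each other pathway list with up to 6 per direction, some of its most abundant uncalled genes, and the 3 genes most like Gli1, Ptch1 and Hhip. The marker genes Krt7, Pdx1, Nkx2-1, Tubb3 and Ahsg were named after their values were seen. Each comparison was also run with DESeq2 1.42.0, limma 3.58.1 on log2(normalized count + 1), RLE factors, library size alone, filterByExpr, no filter, no fold limit, each library left out, and a block for the replicate number. The fits were tested on simulated counts. Python 3.11.15 with numpy 2.4.6, pandas 2.3.3 and matplotlib 3.10.9 served for tables and plots.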

Additional observations from a re-analysis of the deposited data

How the results depend on the processing

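The direction of the 8 tested Hedgehog genes held in every alternative run. Of the members, 2 were called lower in EE, and 4 with DESeq2, with library size alone and with the filterByExpr filter, where Gli1 and Gli3 were added, and 0 to 4 when 1 library was left out. None of the 8 was called without EE replicate 1, PE replicate 2 or PE replicate 3, and 4 were called without EE replicate 3. Of all genes, 1159 were lower and 1078 higher in EE, against 470 to 1100 lower and 563 to 1160 higher with 1 library left out, the fewest without PE replicate 2 (470 lower, 595 higher) and PE replicate 3 (501 lower, 563 higher). DESeq2 called 1894 lower and 1716 higher, and library size alone 1500 lower and 927 higher. In the other pathway lists 10 genes were lower and 7 higher, against 18 and 8 with DESeq2, and 3 to 10 lower and 2 to 7 higher with 1 library left out. Marker lists kept their counts within 1.5 times.

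Deviations of same-numbered libraries from their group mean correlated at -0.125, 0.069 and -0.0227. EE replicate 1 correlated best with PE replicate 2 (0.225) and EE replicate 3 with PE replicate 1 (0.187). The replicate numbers thus showed no sign of pairs, but deviations from a mean of 3 libraries cannot settle whether they are. With the replicate number as a block, 1382 genes were lower and 1140 higher in EE, 2 Hedgehog genes were lower and 0 higher, 13 genes of the other lists were lower and 6 higher, and 44 markers were lower and 38 higher. Cpe (0.0601), Sufu (0.0523) and Kifap3 (0.106) were not called under the block.

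Depth limits the ligand genes most, as Shh, Ihh and Dhh had at most 10 counts in any EE library. Shh had no value with filterByExpr, which removed it. Mean shares of Gli2 and Gli3, and of Gli1 in PE, moved by more than their SD when counts were not divided by length, with Gli3 at 63.7% in EE and 63.7% in PE. Ptch1 per 100 of Smo moved too, from a mean of 24.5 to 61.8 in EE and from 52.4 to 132 in PE. Hhip per 100 of Ptch1 moved in PE, from 40.1 to 25.7. In both ratios every EE library stayed below every PE library.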
